A study of Mus musculus with 6 samples.

Results

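Nuclear hormone receptors are transcription factors, most of them switched by a small fat-soluble ligand, and the genes of this superfamily were followed here in mouse embryonic stem cells exposed to inhibitors of histone deacetylases. The members were chosen by name, as the receptors other than Nr0b1, Nr5a2 and Esrrb: 42 gene symbols were written down, and 40 of them stood alone beside a probeset in the array annotation, out of 19938 genes measured that way. Nr1h2 and Nr2e3 had no such probeset and were not analysed here. Each of the 40 genes had 1 probeset. The cells were E14, an established mouse embryonic stem cell line, and all of them grew in serum and leukemia inhibitory factor (LIF) on primary embryonic fibroblasts whose division had been stopped with mitomycin C. They were given valproic acid (VPA, 0.5 mM) for 16 h, sodium butyrate (NaBu, 0.2 mM) for 16 h, or nothing, with 2 samples per condition and 1 Affymetrix array per sample. VPA and NaBu are short-chain fatty acids that inhibit histone deacetylases, and their doses differed. A single line was used, and RNA of the fibroblasts is part of each sample. All levels below are the deposited log2 values, in which a difference of 1 is a doubling, and levels of different genes are not compared because each probeset responds differently.

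Most receptors of this superfamily share a zinc-finger domain that binds DNA and a pocket that binds the ligand. In the absence of ligand, receptors such as those for retinoic acid and thyroid hormone sit on DNA with corepressor complexes that contain histone deacetylases, and ligand exchanges these for coactivators, many of them acetyltransferases. Receptors for vitamin D, retinoic acid, thyroid hormone, fatty acids, oxysterols and bile acids act as pairs with a retinoid X receptor (RXR), steroid receptors act as pairs with themselves, and the orphan receptors have no known or required ligand. In stem cells kept in LIF, retinoic acid acting on its receptors is a classical trigger of differentiation.

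The promoters of the members that the comparisons below turn on, and that have 1 start site in the RefSeq table of GRCm38.p6, are shown first. The 250 bases before the start of Vdr (chr15:97908297-97908546 (- strand)), Esr2 (chr12:76177260-76177509 (- strand)), Nr3c2 (chr8:76902080-76902329 (+ strand)) and Nr2f2 (chr7:70366747-70366996 (- strand)) are written 5′ to 3′ along each gene's own strand. Capitals mark the GC box GGGCGG on either strand. The half-site AGGTCA, to which many receptors bind, was searched on both strands as well.
Vdr: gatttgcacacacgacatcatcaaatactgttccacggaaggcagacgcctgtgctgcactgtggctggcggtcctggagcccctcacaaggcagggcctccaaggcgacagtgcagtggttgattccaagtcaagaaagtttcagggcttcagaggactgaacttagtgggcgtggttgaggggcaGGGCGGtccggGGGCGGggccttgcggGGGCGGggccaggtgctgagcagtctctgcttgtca
Esr2: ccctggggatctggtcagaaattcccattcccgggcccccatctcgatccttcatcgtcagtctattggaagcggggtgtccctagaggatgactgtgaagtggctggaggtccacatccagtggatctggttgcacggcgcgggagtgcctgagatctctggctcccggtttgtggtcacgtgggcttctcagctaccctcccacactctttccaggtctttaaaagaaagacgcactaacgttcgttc
Nr3c2: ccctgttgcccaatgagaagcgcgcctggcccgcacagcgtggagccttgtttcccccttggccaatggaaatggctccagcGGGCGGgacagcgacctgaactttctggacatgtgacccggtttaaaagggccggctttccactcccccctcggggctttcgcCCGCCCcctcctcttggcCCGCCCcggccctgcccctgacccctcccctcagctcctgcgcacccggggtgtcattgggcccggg
Nr2f2: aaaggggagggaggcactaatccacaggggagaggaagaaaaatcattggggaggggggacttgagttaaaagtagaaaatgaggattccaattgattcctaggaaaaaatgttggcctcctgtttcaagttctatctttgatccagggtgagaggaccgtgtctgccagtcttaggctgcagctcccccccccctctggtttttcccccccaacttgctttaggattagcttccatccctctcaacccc
Vdr and Nr3c2 each have 3 GC boxes in this stretch, and Esr2 and Nr2f2 have none. AGGTCA is in none of the 4 stretches. The Vdr, Esr2 and Nr3c2 stretches hold 11, 12 and 17 CpG dinucleotides, and the Nr2f2 stretch holds 1. Over windows of 300 bases (250 before to 50 after a start), 36 of the 40 members matched the table with 54 starts. A GC box was in 50% of these 54 windows and in 35.7% of all 32851 windows of the table, and AGGTCA was in 18.5% and 16.3%. The 2 motifs do not overlap each other in their letters, and a match is a description of the sequence only. The arrays do not show which start a transcript used.

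The arrays carried markers of the labelled cells. Of 16 embryonic stem cell markers, Pou5f1, which encodes Oct4, lay between 11.12 and 11.90 on the 6 arrays and Nanog between 10.79 and 11.70, while Dppa3 lay between 4.22 and 4.72. Of the 20 written feeder fibroblast markers 19 were measured. Their summed linear level (replicates 1 and 2) was 5065 and 9117 in VPA, 5867 and 9657 in NaBu and 6083 and 8190 in control. It was higher in replicate 2 of each condition. Vim, the marker with the highest level (11.71 to 12.30), weighs most in this sum. Col1a1, the main collagen of fibroblasts, spanned 8.18 to 9.66, while Lum spanned 2.93 to 3.49 and Fap 2.67 to 3.22. Not every feeder marker rose in replicate 2: Twist1 was lower there with NaBu (-0.25) and without treatment (-0.29). Deviations of same-numbered arrays from their condition means correlated across genes with r = 0.558 for VPA and control, 0.693 for NaBu and control and 0.567 for VPA and NaBu. Differences between same-numbered arrays are therefore given beside the pooled ones, and a fit that holds the replicate number constant (the block) beside the plain fit. The labels do not say whether replicates were separate cultures, so p-values measure only the spread between these samples.

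VPA was compared with no treatment to ask which receptor genes respond to a low dose of the inhibitor under self-renewal conditions. The vitamin D receptor, estrogen receptor beta, the mineralocorticoid receptor and the estrogen-related receptor gamma stood higher with VPA by 1.27 to 1.62-fold, in both replicate numbers, and retinoic acid receptor gamma stood lower. None of these differences passed the test over all genes. limma called 0 of 40 members at an adjusted p under 0.05, with a smallest adjusted p of 0.964, against 0% of all genes (percentage called), and 0 with the replicate block, where the smallest was 0.201. At an unadjusted p under 0.05, 4 of 40 members were higher (10% of them), against 2.74% of all genes, and 0 were lower, against 2.18%. With the replicate block the counts were 7 higher (17.5%), against 7.21% of all genes, and 1 lower (2.5%), against 6.01%. Without control replicate 2, and with no block, they were 2 higher and 2 lower. Both VPA arrays lay above both control arrays for 15 of 40 members (37.5%), against 19.1% of all genes, and below them for 6 (15%), against 15.6%. A difference of at least 0.3 in the same direction within both numbers was seen upward in 5 members (12.5%), against 2.69% of all genes. They were Vdr, Esr2, Esrrg, Nr3c2 and Rorb. Downward it was seen in Rarg (2.5%), against 2.14%. The median difference of the 40 members was 0.06, against 0.01 over all genes, and 24 lay above 0 (60%), against 53% of all genes.

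**Figure D1:**
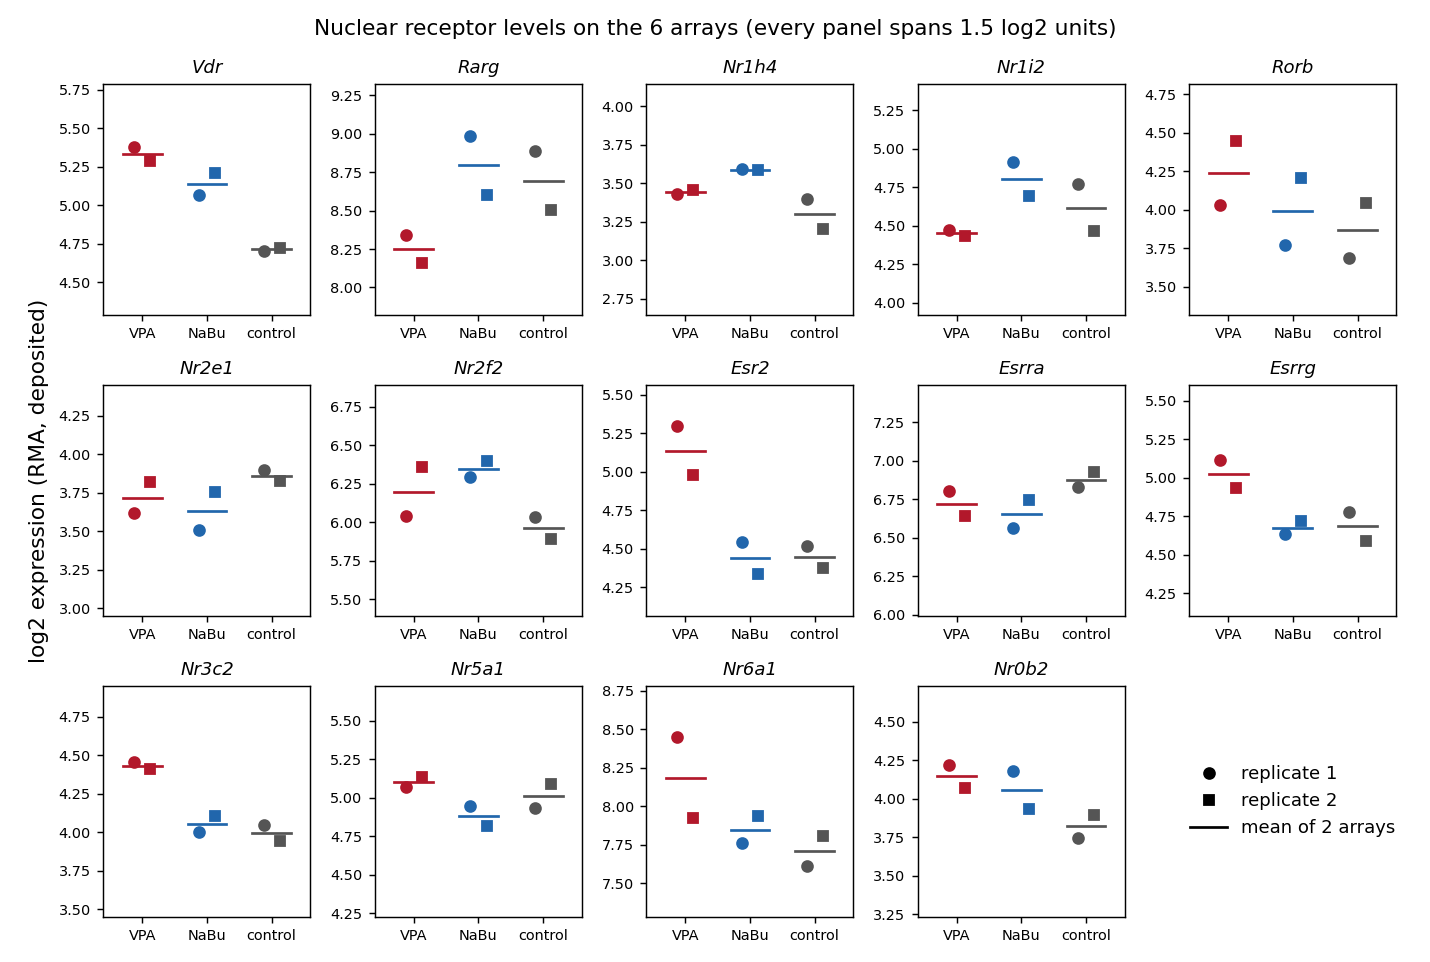
Log2 expression of the 14 named receptor genes on each array (vertical axis, each panel of equal span), by condition, with circles for replicate 1, squares for replicate 2 and bars for the mean of 2 arrays. Vdr, Esr2, Esrrg and Nr3c2 lie higher on both VPA arrays than on both control arrays, and Rarg lies lower.

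Among receptors that pair with RXR, Vdr, the receptor for the active form of vitamin D and a regulator of calcium uptake, had levels of 5.38 and 5.29 in VPA samples, against 4.70 and 4.72 in untreated samples. The groups did not overlap, and both untreated arrays lay close together. Its difference was 0.62 (95% interval 0.33 to 0.90, adjusted p 0.964 in limma, unadjusted 0.00164), with 0.67 within replicate 1 and 0.57 within replicate 2, and 1.54-fold on a linear scale. With the block the interval was 0.36 to 0.88 (limma adjusted p 0.201). The summed feeder markers were 5065 with VPA and 6083 without treatment in replicate 1, and 9117 and 8190 in replicate 2, and the part of feeder RNA in the Vdr difference was not tested. In such mixed samples fewer cells of a type and less RNA per cell cannot be told apart.

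Rarg, the retinoic acid receptor gamma, had levels of 8.34 and 8.16 in VPA samples, against 8.89 and 8.50 in untreated samples. Both VPA arrays lay below both untreated ones. The difference was -0.44 (95% interval -0.91 to 0.03, limma adjusted p 0.964, unadjusted 0.0616), with -0.54 and -0.34 within replicates 1 and 2, and the block narrowed the interval to -0.70 to -0.18 (limma adjusted p 0.202). Without control replicate 1 it was -0.25. Rara, the alpha receptor, had levels of 7.0 and 7.46 in VPA samples, against 7.35 and 7.60 in untreated samples. Its levels overlapped between the groups because both conditions were higher in replicate 2, but within each number VPA was the lower one. Rarb, the beta receptor and itself a gene that retinoic acid induces, had levels of 4.22 and 4.23 in VPA samples, against 4.16 on both untreated arrays.

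The RXR genes, whose products complete these pairs, stood near or slightly below control. Rxra had levels of 6.47 and 6.37 in VPA samples, against 6.75 and 6.50 in untreated samples. Rxrb had levels of 7.21 and 7.05, against 7.40 and 7.30 in untreated samples. Both genes were lower on both VPA arrays than on both untreated ones. Rxrg had levels of 3.83 and 4.29 in VPA samples, against 3.98 and 4.22, and overlapped. The median of the 3 differences was -0.20, and none had an unadjusted p under 0.05 with or without the block.

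The remaining receptors that pair with RXR overlapped or differed little. The fatty acid receptors Ppara, Ppard and Pparg had differences of 0.13, 0.06 and 0.03, and each of them changed sign between the replicate numbers. The thyroid hormone receptors Thra and Thrb stood at -0.17 and 0.19, the oxysterol receptor Nr1h3 at 0.19, the bile acid receptor Nr1h4 at 0.14, and the xenobiotic receptors Nr1i2 and Nr1i3 at -0.16 and -0.03. Nr1h4 had levels of 3.43 and 3.46 in VPA samples, against 3.40 and 3.21 in untreated samples, and Nr1i2 had 4.47 and 4.43, against 4.77 and 4.46. In all, 8 of the 13 measured receptors of this class lay above 0 (61.5%), against 53% of all genes, and 5 did so within both numbers.

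**Figure D2:**
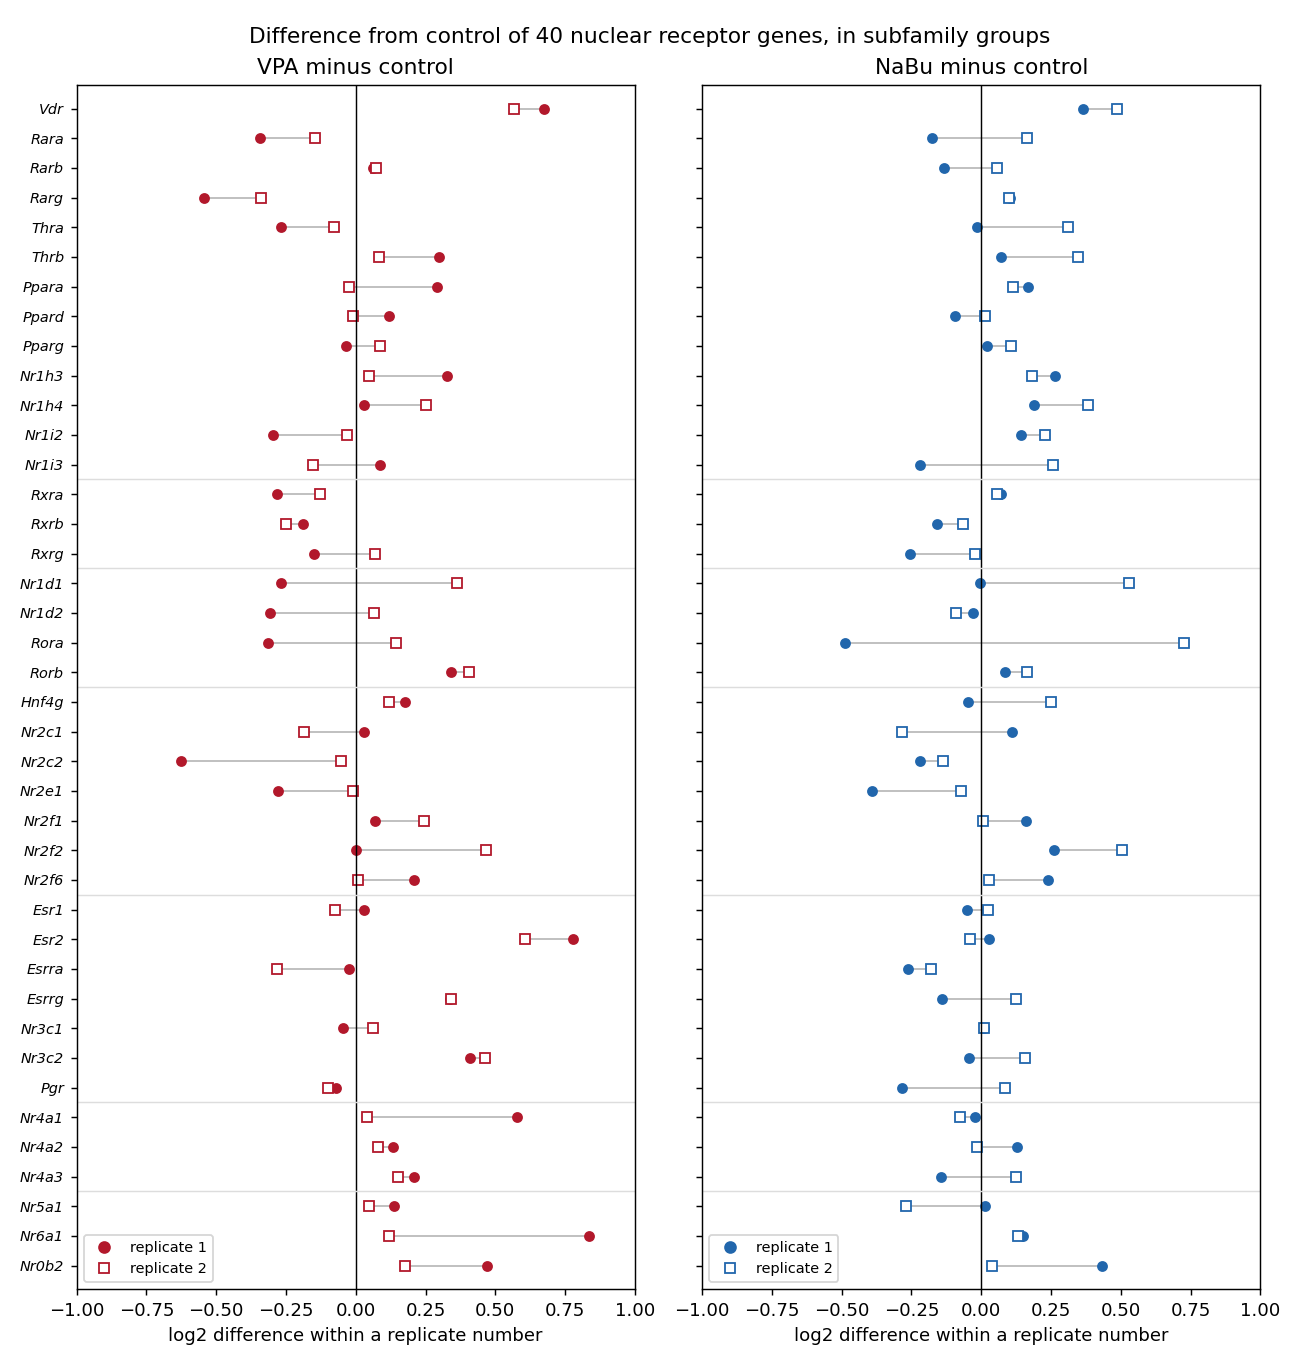
Difference from control of each of the 40 receptor genes (rows, grouped by subfamily) within replicate 1 (filled circles) and replicate 2 (open squares), for VPA on the left and NaBu on the right, in log2 units. With VPA, 19 members lie above 0 and 10 below 0 within both numbers, against 6372 and 5582 of all 19938 genes. With NaBu 16 and 7 members do, against 5803 and 4602 of all genes.

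Among the 7 steroid and estrogen-related receptors, 3 stood higher with VPA at an unadjusted p under 0.05 (42.9% of them, against 2.74% of all genes). Esr2, which encodes estrogen receptor beta, had levels of 5.30 and 4.98 in VPA samples, against 4.52 and 4.37 in untreated samples. The groups were apart by more than the distance between replicates. Its difference of 0.69 (95% interval 0.31 to 1.07, limma adjusted p 0.964, unadjusted 0.00407) was the highest of the 40, with 0.78 and 0.61 within replicates 1 and 2. With the block the interval was 0.44 to 0.95 (limma adjusted p 0.201).

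Nr3c2, the mineralocorticoid receptor, which binds aldosterone and cortisol-like steroids, had levels of 4.46 and 4.41 in VPA samples, against 4.05 and 3.95 in untreated samples. The replicates lay close together in both groups. The difference was 0.44 (95% interval 0.16 to 0.72, limma adjusted p 0.964, unadjusted 0.00841), with 0.41 and 0.46 within the numbers. Esrrg, an orphan receptor tied to oxidative metabolism in heart and muscle, had levels of 5.12 and 4.93 in VPA samples, against 4.78 and 4.59 in untreated samples. Its difference was 0.34 within each number (95% interval 0.02 to 0.66, limma adjusted p 0.964, unadjusted 0.0408).

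The other steroid receptors did not show a difference of this size. Nr3c1, the glucocorticoid receptor, had levels of 7.50 and 7.41 in VPA samples, against 7.55 and 7.35 in untreated samples. Esr1, which encodes estrogen receptor alpha, had levels of 4.56 and 4.67, against 4.53 and 4.75 in untreated samples. The values of both genes overlapped between the conditions. Pgr, the progesterone receptor, stood at -0.08, and Esrra, which like Esrrg regulates mitochondrial genes, at -0.15 (95% interval -0.47 to 0.16), with levels of 6.80 and 6.64 in VPA samples, against 6.83 and 6.92 in untreated samples.

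Vdr, Esr2, Esrrg and Nr3c2 are all dim probesets: each has a mean below the median of all genes (5.77), as do 23 of the 40 members. At or above that median 17 members were left, and 0 of these were higher at an unadjusted p under 0.05, against 2.38% of all genes there, a share at which 0 of 17 says little. In RefSeq, Gm33690 and Gm52171 overlap Vdr, Gm7862 overlaps Esr2, and Gm10649, Gm23260 and Gm24838 overlap Nr3c2. Esrrg is overlapped by 9330162B11Rik, Gm36388 and Gm51738. Among other named members, Nr2f2 is overlapped by B130024G19Rik, Esrra by Mir6990 and Trmt112, and Nr6a1 by Mir181a-2, Mir181b-2 and Nr6a1os. Whether RNA of the overlapping genes reaches the probesets of these members was not tested.

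**Figure D3:**
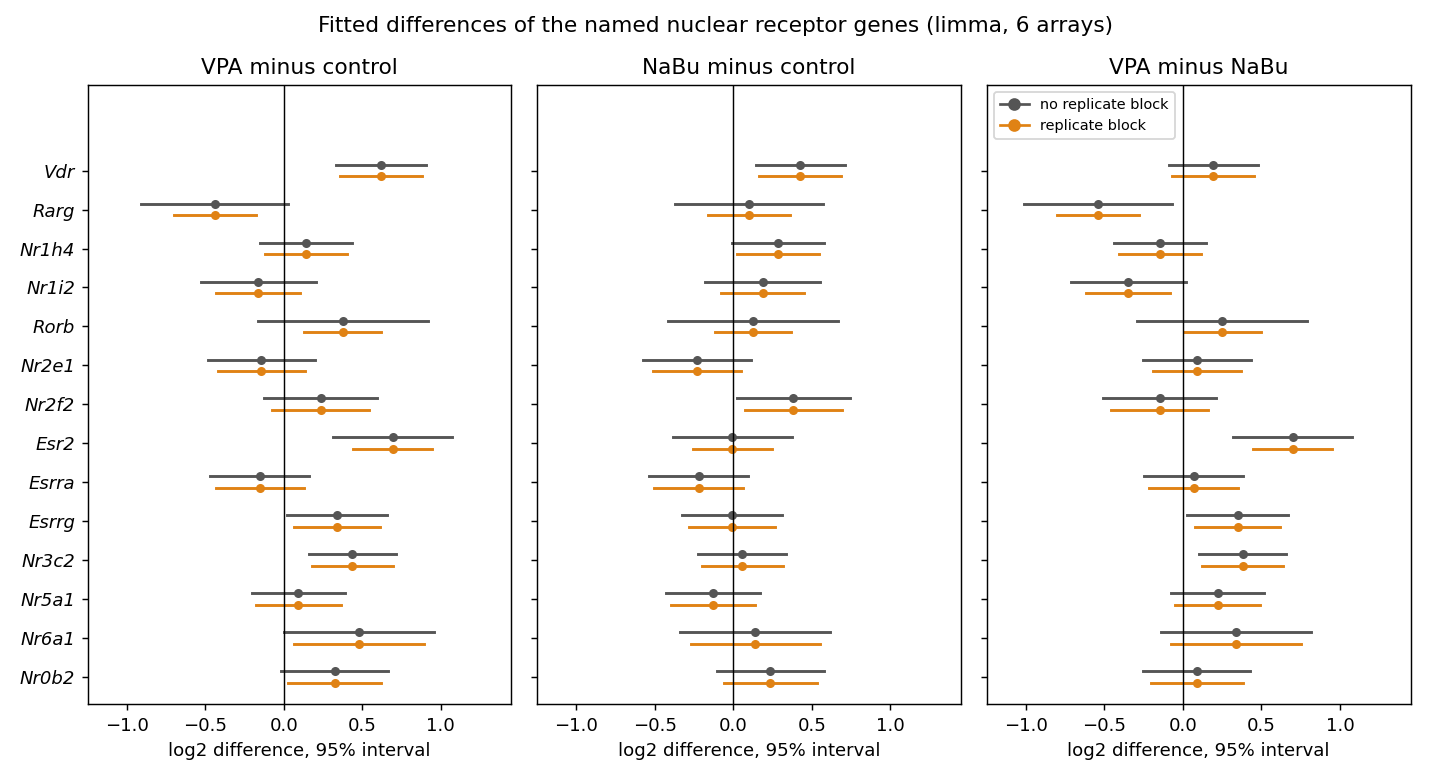
Fitted log2 differences of the 14 named receptor genes (rows) with 95% intervals, without (grey) and with (orange) the replicate number as a block, for VPA minus control, NaBu minus control and VPA minus NaBu. For VPA minus control the intervals of Vdr, Esr2, Esrrg and Nr3c2 lie above 0 in both models, and that of Rarg lies below 0 only with the block.

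Nr6a1, Nr0b2, Nr5a1 and the NR4A genes encode receptors without a classical hormone. Nr6a1, the germ cell nuclear factor, which represses Pou5f1 when mouse embryonic stem cells differentiate, had levels of 8.45 and 7.92 in VPA samples, against 7.61 and 7.81 in untreated samples. The VPA arrays were both higher, but replicate 1 of VPA stood well above the rest. The difference of 0.48 (95% interval -0.00 to 0.96, limma adjusted p 0.964, unadjusted 0.0501) was made of 0.84 within replicate 1 and 0.12 within replicate 2. Its interval was 0.06 to 0.89 with the block (limma adjusted p 0.311). The difference was 0.21 without VPA replicate 1 and 0.74 without VPA replicate 2. On the same arrays Pou5f1 stood at 11.12 and 11.13 in VPA samples, against 11.90 and 11.63 in untreated samples. Whether one is related to the other was not tested.

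Nr0b2, which lacks a DNA-binding domain and holds other receptors in check, had levels of 4.22 and 4.07 in VPA samples, against 3.75 and 3.89 in untreated samples. The groups did not overlap, and the difference was 0.32 (95% interval -0.02 to 0.66, limma adjusted p 0.964), with 0.47 and 0.18 within the numbers. Its interval was 0.03 to 0.62 with the block (limma adjusted p 0.333). Nr5a1, the steroidogenic factor of gonad and adrenal, had levels of 5.07 and 5.13 in VPA samples, against 4.93 and 5.09 in untreated samples, and stood at 0.09. All 3 NR4A genes, which encode rapidly induced receptors that need no ligand, lay above 0 within both numbers. Nr4a1 had levels of 9.72 and 8.91 in VPA samples, against 9.14 and 8.87 in untreated samples, so that its difference of 0.31 was 0.58 within replicate 1 and 0.04 within replicate 2, and Nr4a2 and Nr4a3 stood at 0.11 and 0.18.

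Of the receptors related to HNF4 and COUP-TF, 4 of the 7 measured lay above 0 (57.1%), against 53% of all genes. Nr2c2, the testicular receptor TR4, had levels of 7.29 and 7.50 in VPA samples, against 7.92 and 7.56 in untreated samples. Both VPA arrays were lower, by 0.63 within replicate 1 and by 0.05 within replicate 2. Nr2e1, which maintains neural stem cells, stood at -0.14, Nr2c1, the testicular receptor TR2, at -0.08, Nr2f1 (COUP-TFI) at 0.16, Nr2f2 (COUP-TFII) at 0.23, Nr2f6 at 0.11 and Hnf4g at 0.15. Nr2f2 had levels of 6.04 and 6.36 in VPA samples, against 6.04 and 5.89 in untreated samples, and differed within replicate 2 by 0.47. Nr2e1 had levels of 3.62 and 3.82, against 3.90 and 3.83 in untreated samples. Of the clock receptors, Rorb had levels of 4.03 and 4.45 in VPA samples, against 3.69 and 4.04 in untreated samples. These ranges overlapped because replicate 2 was the higher one in each condition, and the difference was 0.34 and 0.41 within the numbers (95% interval -0.17 to 0.92, and 0.13 to 0.62 with the block, limma adjusted p 0.229).

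The comparison of NaBu with untreated cells put the same question to the other compound. Vdr had the largest difference among the 40 receptors, and Nr2f2 came next, whereas Esr2, Esrrg and Nr3c2 stood close to control. limma called 0 of 40 members at an adjusted p under 0.05 with or without the block, as it did 0% of all genes. At an unadjusted p under 0.05, 2 of 40 members were higher (5%), against 0.662% of all genes, and 0 were lower, against 0.898%. With the block 3 were higher (7.5%), against 2.40% of all genes, and 0 lower, against 2.20%. The count was 0 without NaBu replicate 2 or without control replicate 1, and 1 without control replicate 2. Both NaBu arrays lay above both control arrays for 8 of 40 members (20%), against 12.7% of all genes, and below them for 3 (7.5%), against 11.2%. At 0.3 or more within both numbers, 1 member was higher (Vdr, 2.5%), against 0.717% of all genes, and 0 were lower, against 0.557%. The untreated samples are those of the VPA comparison, so the 2 comparisons are not independent.

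Vdr had levels of 5.07 and 5.21 in NaBu samples, against 4.70 and 4.72 in untreated samples. Both NaBu arrays lay above both untreated ones. The difference was 0.43 (95% interval 0.14 to 0.71, limma adjusted p 1.000, unadjusted 0.0102), with 0.36 and 0.49 within the numbers, and 1.34-fold on a linear scale. Nr2f2, an orphan receptor (COUP-TFII) of mesenchyme and of vein identity, had levels of 6.30 and 6.40 in NaBu samples, against 6.04 and 5.89 in untreated samples. Its difference was 0.38 (95% interval 0.02 to 0.74, limma adjusted p 1.000, unadjusted 0.0407), with 0.26 and 0.50 within the numbers. Beside it, 16 of the 19 feeder markers lay above 0 with NaBu, against 54.3% of all genes. Within both numbers 11 of these markers did, against 5803 of 19938 genes. The feeder markers summed to 5867 in NaBu and 6083 in untreated samples for replicate 1, and 9657 and 8190 for replicate 2. Vim weighs most in that sum. The markers' mean log2 level was 6.63 in NaBu and 6.59 in untreated samples for replicate 1, and 7.37 and 7.12 for replicate 2. The part of feeder RNA in the Nr2f2 value was not tested.

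The other members moved little with NaBu. Nr1h4, the bile acid receptor FXR, had levels of 3.59 on both NaBu arrays, against 3.40 and 3.21 in untreated samples. Its difference was 0.29 (95% interval -0.01 to 0.58, and 0.02 to 0.55 with the block, limma adjusted p 0.994). Nr0b2 had levels of 4.18 and 3.93 in NaBu samples, against 3.75 and 3.89, and stood at 0.24. On the lower side, Nr2e1 had levels of 3.51 and 3.75 in NaBu samples, against 3.90 and 3.83 in untreated samples, and Esrra 6.56 and 6.74, against 6.83 and 6.92. Neither gene overlapped between the groups, and the differences were -0.23 and -0.22. Nr6a1 (7.76 and 7.94 in NaBu samples) and Rorb (3.77 and 4.21) stood at 0.14 and 0.12. Rarg stood at 0.10, with levels of 8.99 and 8.60 in NaBu samples, against 8.89 and 8.50 in untreated samples. Of the 13 receptors that pair with RXR, 10 lay above 0, 8 of them within both numbers, with a median of 0.14. Among the 7 steroid and estrogen-related receptors 2 lay above 0, with a median of -0.01. Of all genes 54.3% lay above 0, with a median of 0.01.

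VPA and NaBu samples were also set against each other, at doses that differed (0.5 mM and 0.2 mM). limma called 0 of 40 members at an adjusted p under 0.05, and 0% of all genes, with or without the block. At an unadjusted p under 0.05, 3 of 40 members were higher with VPA (7.5%), against 1.95% of all genes, and 1 was lower (2.5%), against 1.69%. With the block they were 5 (12.5%), against 5.51%, and 4 (10%), against 5.27%. The conditions did not overlap for 7 members higher with VPA (17.5%), against 16.0%, and 6 lower (15%), against 14.6%. At 0.3 or more within both numbers, Esr2 and Nr3c2 were higher (5%), against 1.35% of all genes, and Rarg was lower (2.5%), against 1.81%. The number of higher members was 1 without VPA replicate 1 or without NaBu replicate 1, and 5 without VPA replicate 2, and that of lower ones was 0 without either VPA array.

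Esr2 had levels of 5.30 and 4.98 in VPA samples, against 4.54 and 4.33 in NaBu samples. The difference was 0.70 (95% interval 0.32 to 1.08, limma adjusted p 0.998, unadjusted 0.0039), with 0.75 and 0.65 within the numbers. Nr3c2 had levels of 4.46 and 4.41 in VPA samples, against 4.0 and 4.11 in NaBu samples, a difference of 0.38 (95% interval 0.10 to 0.66, limma adjusted p 0.998). Both genes were apart between the compounds on every array. Esrrg had levels of 5.12 and 4.93 in VPA samples, against 4.64 and 4.72 in NaBu samples, a difference of 0.35 (95% interval 0.03 to 0.67). Rarg had levels of 8.34 and 8.16 in VPA samples, against 8.99 and 8.60 in NaBu samples, a difference of -0.54 (95% interval -1.01 to -0.07, limma adjusted p 0.998). For Vdr, whose levels were 5.38 and 5.29 in VPA samples and 5.07 and 5.21 in NaBu samples, the interval of the difference was -0.09 to 0.48, so equal levels and a clearly higher level with VPA are both within it. Nr1i2, the xenobiotic receptor PXR, had levels of 4.47 and 4.43 in VPA samples, against 4.91 and 4.69 in NaBu samples, with an interval of -0.72 to 0.02, and Nr5a1 had 5.07 and 5.13, against 4.94 and 4.82, with an interval of -0.08 to 0.52.

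Several receptors varied more between replicate numbers than between treatments. A difference between replicates 2 and 1 of at least 0.2 in the same direction in all 3 conditions, a limit chosen after the values were seen, was found for 9 of the 40 members. Higher in replicate 2 were 7 of the 40, against 6.99% of all genes, and lower were 2 of the 40, against 6.85%. All 4 measured clock receptors were among the 7. Nr1d1 and Nr1d2, the REV-ERB repressors of the circadian clock, had levels of 7.32, 7.58 and 7.59 (Nr1d1) and 7.61, 7.88 and 7.91 (Nr1d2) in replicate 1 of VPA, NaBu and control. In replicate 2 the levels were 8.23, 8.40 and 7.87 for Nr1d1 and 8.59, 8.43 and 8.52 for Nr1d2. Every replicate 2 value of both genes lay above every replicate 1 value. Rora, an activator at the same sites, had levels of 5.62, 5.45 and 5.94 in replicate 1 of VPA, NaBu and control and 6.28, 6.87 and 6.14 in replicate 2. Its difference from control with NaBu was -0.49 within replicate 1 and 0.73 within replicate 2, so its direction could not be given.

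Thra, Rara and Rxrg were also higher in replicate 2, and Pparg, the fatty acid receptor of fat cells, and Nr4a1 were lower. Thra had levels of 6.29, 6.55 and 6.56 in replicate 1 of VPA, NaBu and control and 6.91, 7.30 and 6.99 in replicate 2. Pparg had levels of 4.50, 4.55 and 4.53 in replicate 1 and 4.20, 4.22 and 4.12 in replicate 2. Each gene kept the 2 numbers apart in all 3 conditions. Beside them, the feeder markers were higher in replicate 2 by 0.95 (VPA), 0.74 (NaBu) and 0.52 (control) in mean log2 level, and 16 other clock genes by 0.29, 0.46 and 0.28. Of these 16 clock genes 11 were higher in replicate 2 in all 3 conditions and 1, the clock repressor Cry1, was lower in all 3. These counts have no minimum size, and the share of all genes that meets them was not counted. Without Bhlhe40, another clock repressor, the clock means were 0.19, 0.37 and 0.22. The part of feeder RNA in the receptor differences between replicate numbers was not tested.

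**Figure D4:**
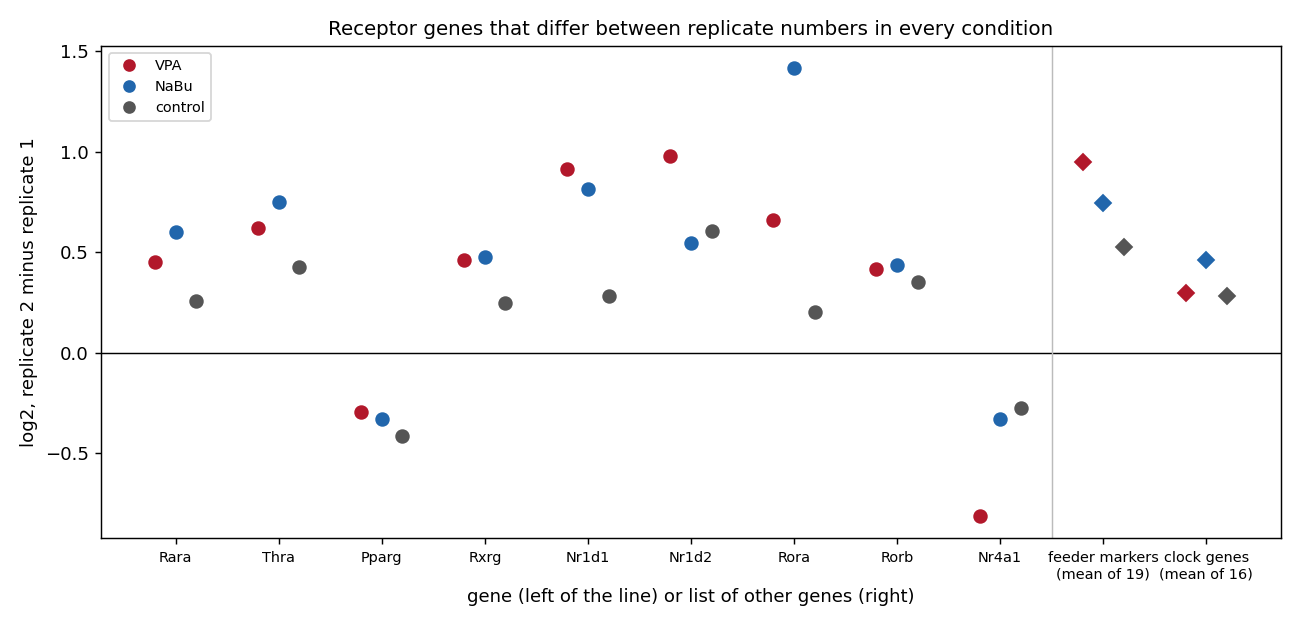
Replicate 2 minus replicate 1 (log2, vertical axis) in VPA, NaBu and control samples for the 9 receptor genes that differed by at least 0.2 in the same direction in all 3 conditions, with the mean of 19 feeder markers and of 16 other clock genes on the right. The clock receptors and the mean of the feeder markers are higher in replicate 2 in all 3 conditions, and Pparg and Nr4a1 are lower.

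Genes that work with the receptors were counted from lists written with earlier results of these data known, leaving out the members themselves. In none of these lists did a gene pass an adjusted p under 0.05 in limma for VPA or for NaBu. Of all genes 53% lay above 0 with VPA and 54.3% with NaBu. Within both numbers 6372 of 19938 genes lay above 0 and 5582 below 0 with VPA, and 5803 and 4602 with NaBu. Coregulators, the proteins that receptors recruit, stood mostly lower with VPA: 18 of 25 lay below 0, 15 of them within both numbers, with a median of -0.13. Of these 25, 4 were lower at an unadjusted p under 0.05, against 2.18% of all genes, and 0 higher, against 2.74%. They were the acetyltransferase Kat2b (-0.98), Tbl1xr1, a subunit of the NCoR corepressor complex (-0.44), the arginine methyltransferase Prmt1 (-0.40) and Trim24, a ligand-dependent cofactor (-0.39). With NaBu 19 of the 25 lay above 0, 7 of them within both numbers, and the median was 0.04.

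Genes of retinoid metabolism and retinoic acid response lay above 0 with VPA in 15 of 21 cases, 12 of them within both numbers, with a median of 0.11, and 2 were higher at an unadjusted p under 0.05, against 2.74% of all genes. These were Aldh1a2, which makes retinoic acid (1.17, with 1.60 and 0.73 within the numbers), and Cyp26a1, which degrades it (0.44, with 0.32 and 0.56). Both probesets are dim, with means of 5.63 (Aldh1a2) and 3.94 (Cyp26a1), below the median of all genes (5.77). Crabp2, which carries retinoic acid to its receptors, stood at 0.80 and the retinol dehydrogenase Rdh10 at 0.59. With NaBu 11 of the 21 lay above 0, 0 were higher at an unadjusted p under 0.05 (0.662% of all genes) and 1 was lower (0.898%). The lower one was Cdx1, a homeobox gene that retinoic acid induces, at -0.39 (unadjusted p 0.0394 and adjusted p 1.000 in limma), with -0.20 and -0.59 within the numbers. Aldh1a2 and Cyp26a1 stood at 0.39 and 0.11 with NaBu. The 14 measured genes of vitamin D metabolism and response, the pathway of Vdr, had a median of 0.09 with VPA and 0.03 with NaBu, and 0 of them had an unadjusted p under 0.05 with either compound. Lrp2, the receptor that takes up vitamin D with its carrier protein, stood at 0.57 with VPA, and Cyp27b1, which makes the active hormone, at 0.08. Cyp24a1 was not analysed here.

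Genes of thyroid hormone handling and response had a median of 0.13 with VPA, with 8 of 11 above 0. Crym, which binds thyroid hormone in the cytoplasm, stood at 0.84, and the transporter Slc16a10 at 0.76, both higher at an unadjusted p under 0.05 (0.00517 and 0.00642), as were 2.74% of all genes. Of 18 target genes of the oxysterol and bile acid receptors, 2 were higher, against 2.74% of all genes, and 2 lower, against 2.18%, the lower ones being Fgf15 (-0.71) and Fasn (-0.46). The 20 PPAR target genes had a median of 0.04, with Acadl, an enzyme of fatty acid oxidation, at 0.42. The 11 xenobiotic receptor targets had a median of 0.12, with Cyp2b23 at -1.39. The 22 glucocorticoid and steroid receptor targets had a median of 0.09, with the metallothionein Mt1 at 0.51, and the 16 clock genes had a median of 0.02. With NaBu the medians of these 5 lists and of the thyroid list ran from -0.04 to 0.07. Of the orphan receptors of the pluripotency network, Nr0b1 stood at -0.62 with VPA, Nr5a2 at -0.50 and Esrrb at -0.30, all 3 lower within both numbers, and with NaBu they stood at -0.08, 0.00 and -0.01. Of the 16 embryonic stem cell markers 15 lay below 0 with VPA, 13 of them within both numbers, with a median of -0.27, and with NaBu 12 did, with a median of -0.05.

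**Figure D5:**
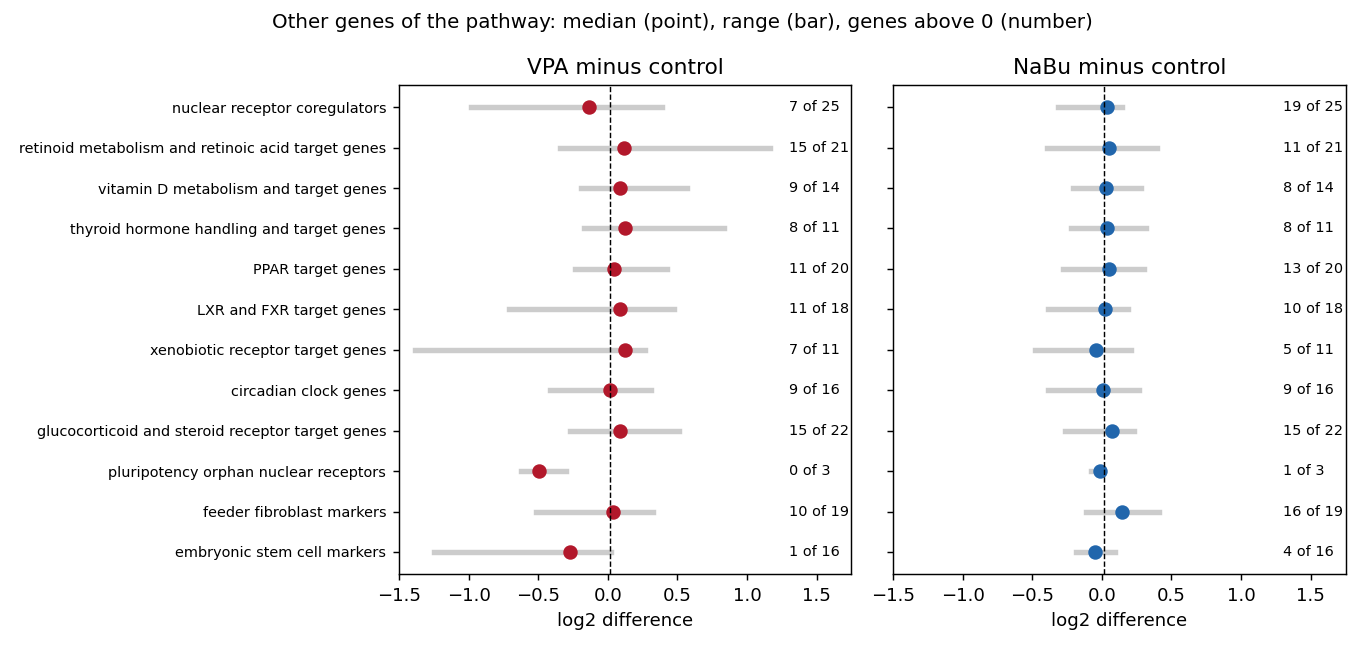
Median (point) and range (grey bar) of the log2 difference from control for VPA on the left and NaBu on the right in each list of genes that work with the receptors and in both marker lists, with the number of genes above 0 and the median of all genes as a dashed line. With VPA the coregulators and the embryonic stem cell markers lie mostly below 0 and the retinoid genes mostly above 0.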

How the data were processed

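The series holds 6 Affymetrix arrays of E14 mouse embryonic stem cells, 2 each for VPA, NaBu and no treatment, with groups and replicate numbers taken from the sample titles. The authors deposited log2 values, 1 per probeset and array. Per the submitters' processing notes, RMA was run in Expression Console 1.1 of Affymetrix. The RMA settings and a genome build were not given in the sources used. Of 35556 probesets, 21789 carried a single gene symbol in the platform annotation. The probeset with the highest mean stood for a gene, which left 19938 genes. Differences were fitted over all 6 arrays by lmFit and eBayes (limma 3.58.1, R 4.3.3, 3 residual degrees of freedom, 2 with the replicate block), with Benjamini-Hochberg adjustment over all genes at a threshold of 0.05. Precision is limited by the few arrays, and an exact permutation test of 2 against 2 arrays cannot go below 0.333, so none was used. The code was tested on simulated data.

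The members and lists were chosen with earlier results of these data known. Members named with all their values were the 6 with the largest moderated statistic in each comparison, those at an unadjusted p under 0.05 and those at 0.3 or more within both numbers for a compound, 14 in all, and others are given as ranges, differences or, where chosen after their values were seen, levels. Genes of the other lists came from the top 3 by that statistic with either compound, and Nr0b1, Nr5a2 and Esrrb in any case. Bhlhe40, Nanog, Dppa3, Vim, Lum and Twist1 were chosen after their values were seen. Replicate numbers were taken to pair the arrays in the block and in the within-number differences, because every correlation of same-numbered deviations was above 0.1. The plain fit did not pair the arrays, and it gave the intervals and p-values wherever the block is not named. Alternatives were the block, median centring, quantile normalization, filters at the 25th and 50th percentile, the mean of a gene's probesets, an intensity trend and leaving out each array. Promoters are from RefSeq's table of GRCm38.p6.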

Additional observations from a re-analysis of the deposited data

How the results depend on the processing

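No member passed an adjusted p under 0.05 in limma in any of the 3 comparisons under any alternative run (the replicate block, median centring, quantile normalization, filters at the 25th and 50th percentile, the mean of a gene's probesets, an intensity trend, and each array left out). For VPA against control, members higher at an unadjusted p under 0.05 numbered 7 with the replicate block, 0 among genes at or above the median and 2 to 6 when 1 array was left out, against 4 in the model as reported, and members lower numbered 1 with the block and 0 to 2 when 1 array was left out, against 0. For NaBu against control, those higher numbered 1 after quantile normalization, 1 among genes at or above the median and 0 to 2 when 1 array was left out, against 2. For VPA against NaBu, those higher numbered 5 with the block, 0 among genes at or above the median and 1 to 5 when 1 array was left out, against 3, and those lower numbered 4 with the block, 2 after quantile normalization and 0 to 1 when 1 array was left out, against 1. At or above the median 23 of the 40 members are no longer tested, among them Vdr, Esr2, Esrrg and Nr3c2, and the cause of the other shifts was not tested. The median difference of the members with VPA was 0.02 after median centring, 0.04 after quantile normalization and -0.08 among the 17 members at or above the median.

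The VPA differences of the 14 named members kept their sign under each alternative in which they were tested. That of Vdr ran from 0.57 to 0.66, that of Esr2 from 0.53 to 0.85, that of Nr3c2 from 0.39 to 0.49 and that of Rarg from -0.63 to -0.25. For NaBu, Esr2 (-0.01) stood at 0.020 and Esrrg (-0.01) at 0.0097 after quantile normalization. With 1 array left out, Esr2 ran from -0.11 to 0.10, Esrrg from -0.10 to 0.084, Rarg from -0.092 to 0.29 and Rorb from -0.092 to 0.34. Between VPA and NaBu, Nr2f2 ran from -0.31 to 0.012, Esrra from -0.023 to 0.16, Nr2e1 from -0.035 to 0.21 and Nr0b2 from -0.035 to 0.21. Fits with 1 array left out assume that the lone array varies like the other groups. Signal over background limits what can be seen for the 23 members below the median of all genes.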
